A study of Homo sapiens with 9 samples.

Results

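The BCL2 family regulators of apoptosis were followed through 10 genes, chosen by symbol from a table of 56541 genes: the anti-apoptotic BCL2, MCL1, BCL2L1 and BCL2A1, the effectors BAX and BAK1, and the BH3-only genes BCL2L11, BBC3, PMAIP1 and BID. All 10 were present once in the table, had counts in all 9 libraries and passed the filter on low counts in both comparisons. The libraries came from MOLM-13, an established human acute myeloid leukaemia line whose tissue is labelled as peripheral blood. The 3 groups held 3 replicates each. Cells expressing the control hairpin (shCONTROL) and cells whose hairpin targets BCLAF1 (shBCLAF1) were profiled by RNA-seq, and BCLAF1 immunoprecipitation (RIP) was used to recover RNA from shCONTROL cells. Every group, the controls included, received doxycycline at the labelled 200 ng/µL for 4 days. RNA-seq used 2000000 cells a sample and the RIP 15000000. The labels do not say whether replicates were separate cultures, so p-values measure the spread between these samples, which may be technical.

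BCL2 family proteins decide whether the outer mitochondrial membrane is opened to release cytochrome c. Anti-apoptotic members hold the effectors BAX and BAK1 in check, and BH3-only proteins, induced by stress or by loss of growth signals, bind and neutralise the anti-apoptotic members or activate the effectors directly. Acute myeloid leukaemia cells commonly depend on BCL2 or MCL1 for survival, which is the basis for BH3-mimetic drugs. BCLAF1 takes its name from binding to BCL2 family proteins, and is a nuclear protein linked to RNA processing.

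Total estimated counts ran from 25819144 to 36635268 a library, and 3 counts, the floor used here, equalled 0.0819 to 0.116 CPM (counts scaled to a common library total). Values below are CPM after TMM scaling over all 9 libraries, given for replicates 1, 2 and 3 in that order. The hairpin's target BCLAF1 measured 325, 328 and 312 CPM in shCONTROL and 115, 125 and 99.9 CPM in shBCLAF1, and its groups did not overlap. All 10 markers of myeloid blasts were detected, summing to 1037 to 1070 CPM in shCONTROL libraries, 1046 to 1135 for shBCLAF1 and 1378 to 1449 for the RIP. Within that list 4 of 10 genes were higher and 3 lower after knock-down (15.5% and 16.9% of all genes tested), and 2 were higher and 2 lower in the RIP (24.6% and 24.7%). HBB, CD3E, CD2, MS4A1, PAX5, COL1A1 and EPCAM, which mark red cells, T cells, B cells, fibroblasts and epithelium, were listed at 0 in every library. The T-cell list was otherwise at 34.96 to 39.1 CPM in shCONTROL and 19.2 to 25.7 in shBCLAF1, from CD3D and TRAC. In bulk RNA, fewer cells of a type and less RNA per cell cannot be told apart, and the part of these marker changes in the results below was not tested.

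The knock-down comparison asks how BCL2 family transcripts change when BCLAF1 is depleted. Of the 10 genes, 3 fell (BCL2, BBC3 and PMAIP1) and 2 rose (BAK1 and MCL1) when edgeR's quasi-likelihood p, adjusted by Benjamini-Hochberg over 16961 genes, was held under 0.05. In that comparison 16.9% of all genes tested were lower, 15.5% higher and 32.3% changed in either direction, beside 5 of these 10. By size, 0 family genes had a log2 fold change of 1 with edgeR, with DESeq2, or at an unadjusted p under 0.05. Such a size was uncommon over all genes as well. Of all genes tested, 5.44% lay below the lowest family value (BCL2) and 7.59% above the highest (BAK1).

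BCL2 fell most. This gene encodes the founding survival protein of the family and the target of venetoclax, and it lies at chromosome 18, 63123346 to 63320090 (GRCh38.p14). It measured 397, 431 and 398 CPM in shCONTROL and 229, 234 and 222 CPM in shBCLAF1. The groups were far apart, and the shBCLAF1 libraries were close to one another. The mean fell from 409 ± 19.1 to 228 ± 6.02 CPM (SD, n = 3 each), to 55.8% of the control. The log2 fold change was -0.84 (0.05 SE, edgeR-adjusted p 2.06e-04). Only 5.44% of all genes tested had a lower log2 fold change.

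MCL1, a short-lived survival protein that many haematopoietic cells need (chromosome 1, 150574558 to 150579610), moved the other way by a small amount. It measured 360, 366 and 334 CPM in shCONTROL and 394, 400 and 403 CPM in shBCLAF1. The groups did not overlap, and all 3 shBCLAF1 libraries were above the highest control. The log2 fold change was 0.18 (0.04 SE, edgeR-adjusted p 0.0227), a mean of 113% of the control. The call was lost in the single fit of all 9 libraries (adjusted p 0.238) and without shCONTROL replicate 1 or 3 or shBCLAF1 replicate 1 or 2 (0.0502 to 0.0731).

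Set against MCL1 within each library, BCL2 fell further. Counts of BCL2 per count of MCL1 were 1.10, 1.18 and 1.19 in shCONTROL and 0.580, 0.584 and 0.551 in shBCLAF1. This ratio takes no scaling between libraries, and its 2 groups did not overlap. Levels of different genes were not ranked, because transcript lengths were not used here, so the ratio is read only between groups.

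**Figure D1:**
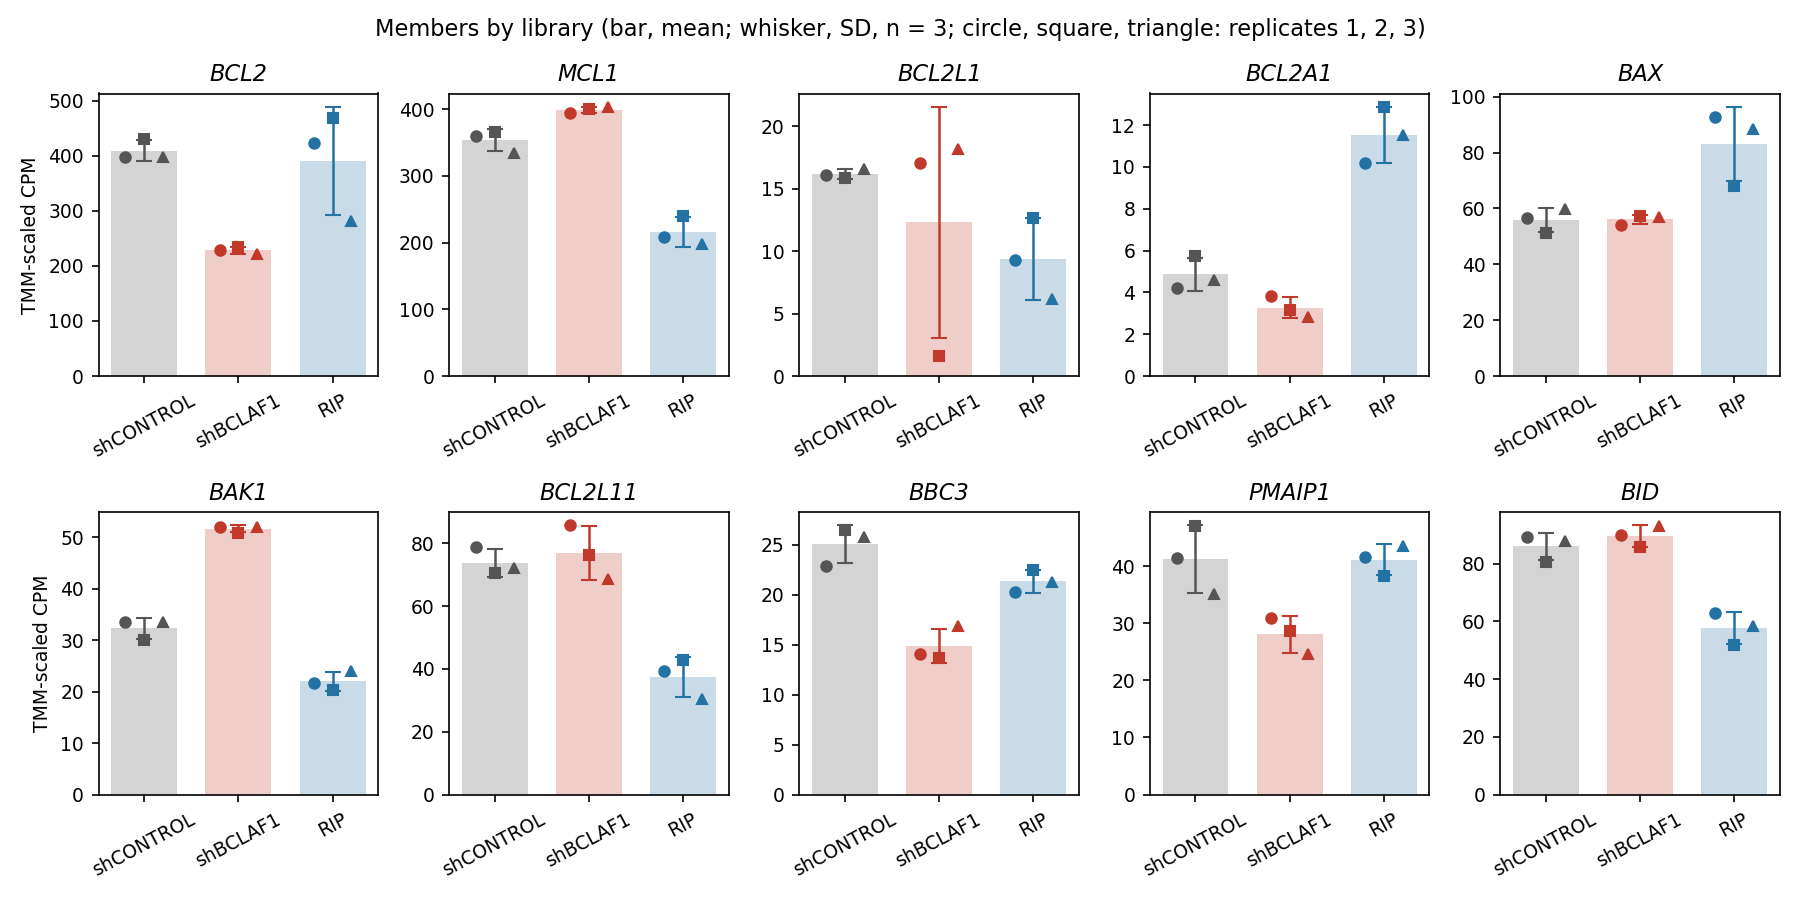
TMM-scaled CPM (y axis, from 0) of the 10 genes in shCONTROL, shBCLAF1 and RIP libraries; bars are means, whiskers SD over 3 replicates and symbols the replicates. BCL2, BBC3 and PMAIP1 sit lower in shBCLAF1 than in shCONTROL, BAK1 and MCL1 higher, and 1 shBCLAF1 library of BCL2L1 stands far below the other 2.

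BCL2L1 encodes BCL-XL and the shorter, pro-apoptotic BCL-XS by alternative splicing, which a table of genes does not separate. Its counts were 568, 536 and 597 in shCONTROL and 649, 62 and 668 in shBCLAF1. Replicate 2 of shBCLAF1 thus stood at 1.64 CPM beside 17.1 and 18.2 in its group. The log2 fold change was -0.39 (0.75 SE, edgeR-adjusted p 0.737), and it was 0.13 without that library (adjusted p 0.324). Such isolated low values occurred elsewhere: in shBCLAF1 replicate 2, 35 of 12068 genes with at least 100 counts in both other replicates lay under 20% of each of them. The other libraries held 10 to 66 such genes. The antisense gene BCL2L1-AS1, which overlaps BCL2L1, held at most 23 counts.

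BCL2A1 encodes BFL-1, an NF-kB-inducible survival protein of myeloid cells. It measured 4.22, 5.74 and 4.61 CPM in shCONTROL and 3.84, 3.14 and 2.84 CPM in shBCLAF1, so the groups did not overlap, although only 104 to 194 counts a library lie behind these values. Its log2 fold change of -0.56 (SE 0.18) did not pass with edgeR (adjusted p 0.0566). It passed with DESeq2 (0.0194), among genes above 0 in all 9 libraries (0.0366) and without shBCLAF1 replicate 1 (0.0472). Over 13 alternatives the adjusted p ranged between 0.0194 and 0.146.

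The pair of effectors, the proteins that form the pore in the outer mitochondrial membrane, separated. BAK1, which resides on mitochondria (chromosome 6, 33572552 to 33580276), measured 33.6, 29.98 and 33.5 CPM in shCONTROL and 51.9, 50.8 and 52.02 CPM in shBCLAF1. The shBCLAF1 libraries lay close together and well above every control. Its mean rose to 160% of the control, with a log2 fold change of 0.68 (0.06 SE, edgeR-adjusted p 5.85e-04), and 7.59% of all genes tested had a higher one.

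BAX, which is cytosolic until activated (chromosome 19, 48954875 to 48961798), measured 56.6, 51.3 and 59.7 CPM in shCONTROL and 54.1, 57.2 and 56.8 CPM in shBCLAF1. These groups overlapped, and the log2 fold change was 0.01 (0.07 SE, edgeR-adjusted p 0.940), with both signs among its alternatives (-0.04 to 0.07). Counts of BAX per count of BAK1 were 1.68, 1.71 and 1.78 in shCONTROL and 1.04, 1.13 and 1.09 in shBCLAF1, without overlap.

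Among the BH3-only genes, BBC3 and PMAIP1 fell. They encode PUMA and NOXA. PUMA binds all anti-apoptotic members, whereas NOXA mainly binds MCL1 and BFL-1. BBC3 (chromosome 19, 47220824 to 47232860) measured 22.9, 26.5 and 25.8 CPM in shCONTROL and 14.1, 13.7 and 16.8 CPM in shBCLAF1. Every shBCLAF1 library was lower than every control, and the mean fell to 59.5% of the control (log2 fold change -0.74, 0.11 SE, edgeR-adjusted p 0.00337).

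PMAIP1 (chromosome 18, 59899996 to 59904305) was more variable. It measured 41.5, 47.0 and 35.1 CPM in shCONTROL and 30.9, 28.6 and 24.6 CPM in shBCLAF1. The groups did not overlap, with a log2 fold change of -0.55 (0.13 SE, edgeR-adjusted p 0.0227). The call was lost without shCONTROL replicate 1 or 2 or shBCLAF1 replicate 2 or 3 (adjusted p 0.0580 to 0.0692).

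BCL2L11 and BID did not pass. BCL2L11 encodes BIM, a binder of every anti-apoptotic member, and measured 78.7, 70.5 and 72.03 CPM in shCONTROL and 85.7, 76.4 and 68.6 CPM in shBCLAF1. The groups overlapped (log2 fold change 0.06, 0.09 SE, edgeR-adjusted p 0.644), and the value was -0.021 without shBCLAF1 replicate 1. BID, which is cut by caspase-8 and links death receptors to mitochondria, measured 80.7 to 89.3 CPM in shCONTROL and 85.6 to 93.03 in shBCLAF1 (log2 fold change 0.06, 0.05 SE, edgeR-adjusted p 0.456).

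**Figure D2:**
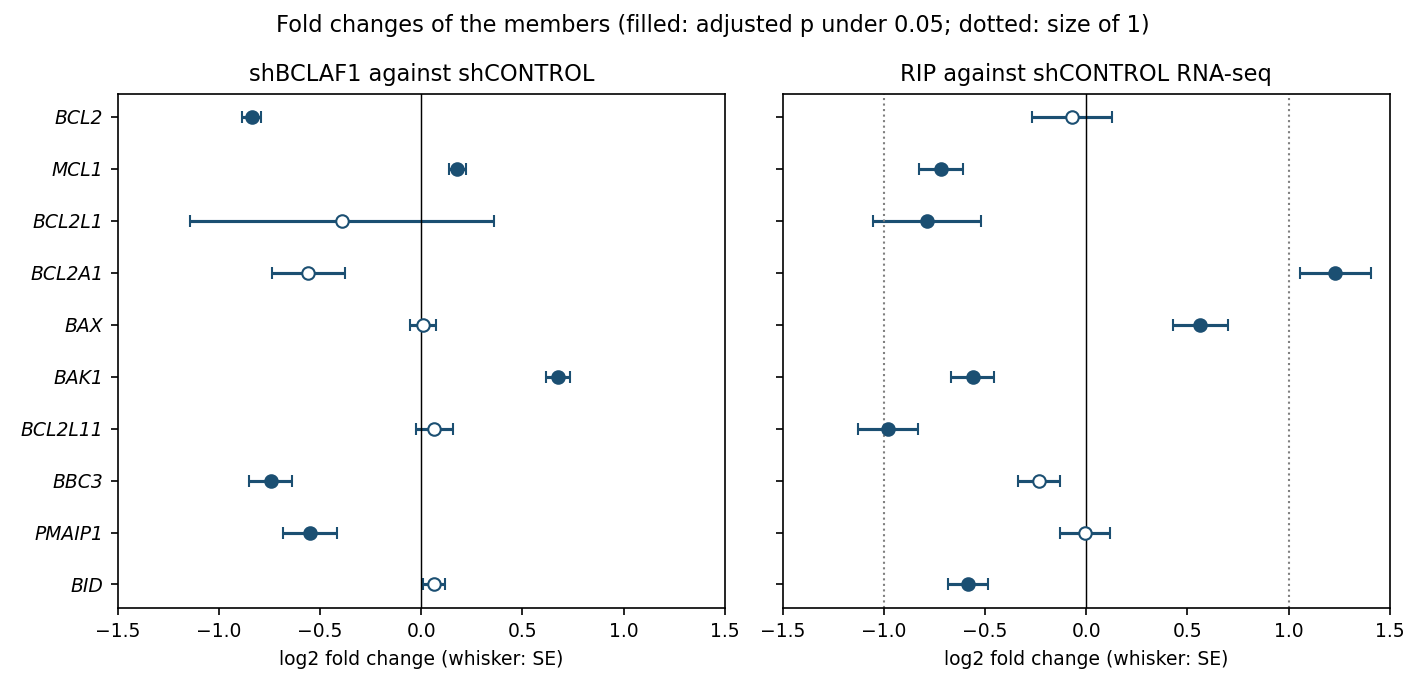
Log2 fold change (x axis; whiskers SE) of each gene after knock-down (left) and in the RIP against shCONTROL RNA-seq (right); filled points passed at an adjusted p under 0.05, and dotted lines mark a size of 1 in the RIP. After knock-down 5 genes passed, from -0.84 for BCL2 to 0.68 for BAK1, and in the RIP 7 passed, from -0.98 for BCL2L11 to 1.23 for BCL2A1.

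The sequence before the start site is shown for 3 genes whose windows lie outside the annotated gene span and which moved differently: PMAIP1 fell, BAK1 rose and BAX did not pass. The sequences are from RefSeq (GRCh38.p14), on the strand of the gene, and hold the 250 bases before the start: chr18:59899746-59899995 (plus strand) for PMAIP1, chr6:33580277-33580526 (minus strand) for BAK1 and chr19:48954625-48954874 (plus strand) for BAX. RefSeq windows were matched for 9 of the 10 genes. Capitals mark matches, on either strand, to the cAMP response element core TGACGT, the E-box CACGTG, the GC box GGGCGG and the CCAAT box.
PMAIP1: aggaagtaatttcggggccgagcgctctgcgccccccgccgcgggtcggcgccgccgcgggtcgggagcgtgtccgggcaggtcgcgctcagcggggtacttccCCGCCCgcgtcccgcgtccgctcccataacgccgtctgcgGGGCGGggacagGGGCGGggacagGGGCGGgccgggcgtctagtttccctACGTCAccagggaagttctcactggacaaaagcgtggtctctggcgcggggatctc
BAK1: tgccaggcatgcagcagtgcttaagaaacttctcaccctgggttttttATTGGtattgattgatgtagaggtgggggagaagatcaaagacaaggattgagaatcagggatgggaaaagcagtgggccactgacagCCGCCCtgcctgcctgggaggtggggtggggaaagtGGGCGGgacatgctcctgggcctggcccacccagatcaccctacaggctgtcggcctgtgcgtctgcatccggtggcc
BAX: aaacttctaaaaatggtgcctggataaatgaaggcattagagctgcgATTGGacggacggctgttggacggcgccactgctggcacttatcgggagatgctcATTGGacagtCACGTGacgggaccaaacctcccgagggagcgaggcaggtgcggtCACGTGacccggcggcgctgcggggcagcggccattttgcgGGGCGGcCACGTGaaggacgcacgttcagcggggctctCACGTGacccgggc

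PMAIP1 held 4 GC boxes and 1 cAMP response element core, 56 bases before the start, BAK1 held 2 GC boxes and 1 CCAAT box, and BAX held 4 E-boxes, 1 GC box and 2 CCAAT boxes. Over 35116 windows of this length, 42.6% held a GC box, 32.0% a CCAAT box, 7.10% the cAMP response element core and 6.34% an E-box. The ATF4-C/EBP element TGATGNAA, held by 3.14% of windows, and the TATA box TATAAA, held by 10.7%, had no match in these 3. The octamer TGACGTCA, which contains the core, was held by 1.65% of windows and by none of the 3. A match is a run of letters and not a measured binding site.

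The RIP comparison asks which BCL2 family mRNAs were recovered with BCLAF1 beyond or below their abundance in RNA-seq of cells with the same control hairpin. BCL2A1 and BAX were higher in the RIP, and MCL1, BCL2L1, BCL2L11, BAK1 and BID were lower, with edgeR's adjusted p under 0.05. Over 16727 genes, 24.6% were higher, 24.7% lower and 49.2% changed in either direction by this rule, against 7 of the 10 family genes. With a minimum size of 1 on the log2 scale as well, 1 gene was enriched (BCL2A1; 11.0% of all genes) and 0 were depleted (13.5% of all genes, and 24.5% in either direction). DESeq2 and an unadjusted p under 0.05 also gave 0 depleted genes at that size. The reference was RNA-seq and not a mock precipitation, so recovery here includes any background of the precipitation. Scaling by library totals shifted the all-gene median log2 fold change by -0.12 in this comparison.

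BCL2A1 stood highest. It measured 10.2, 12.9 and 11.5 CPM in the RIP against 4.22 to 5.74 CPM in shCONTROL, and no RIP library reached as low as any control. Its mean was 237% of the control, with a log2 fold change of 1.23 (0.18 SE, edgeR-adjusted p 0.00222), and 9.54% of all genes tested had a higher one. The size stayed above 1 in all 14 alternatives (1.11 to 1.52), but edgeR's test for a change beyond 1 on that scale did not pass (adjusted p 0.213).

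BCL2, the gene that fell most after knock-down, overlapped its RNA-seq level in the RIP, with wide spread. It measured 422, 469 and 281 CPM in the RIP against 397 to 431 CPM in shCONTROL, so the groups overlapped and replicate 3 was the low library. The log2 fold change was -0.07 (0.20 SE, edgeR-adjusted p 0.786), and 0.12 without RIP replicate 3. With shCONTROL and shBCLAF1 averaged as the reference it was 0.35 (adjusted p 0.0622); that reference holds the shBCLAF1 libraries, in which BCL2 was lower.

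MCL1 was recovered below its RNA-seq level, at 209, 240 and 198 CPM against 334 to 366 CPM in shCONTROL. The groups were apart in every library, with a log2 fold change of -0.72 (0.11 SE, edgeR-adjusted p 0.00283). Counts of BCL2 per count of MCL1 were 2.02, 1.95 and 1.42 in the RIP, all above the shCONTROL values of 1.10 to 1.19.

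BCL2L1 measured 9.28, 12.7 and 6.18 CPM in the RIP against 15.9 to 16.6 CPM in shCONTROL. All RIP libraries were lower, but they differed among themselves by more than the controls did, and the log2 fold change of -0.79 (SE 0.27) sat at the threshold (adjusted p 0.0498 by edgeR). The call was lost without a low-count filter (0.0603), with upper-quartile scaling (0.0522), in the fit of all 9 libraries (0.374), with both RNA-seq groups as the reference (0.436), and without any 1 shCONTROL replicate or RIP replicate 1 (0.107 to 0.125).

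**Figure D3:**
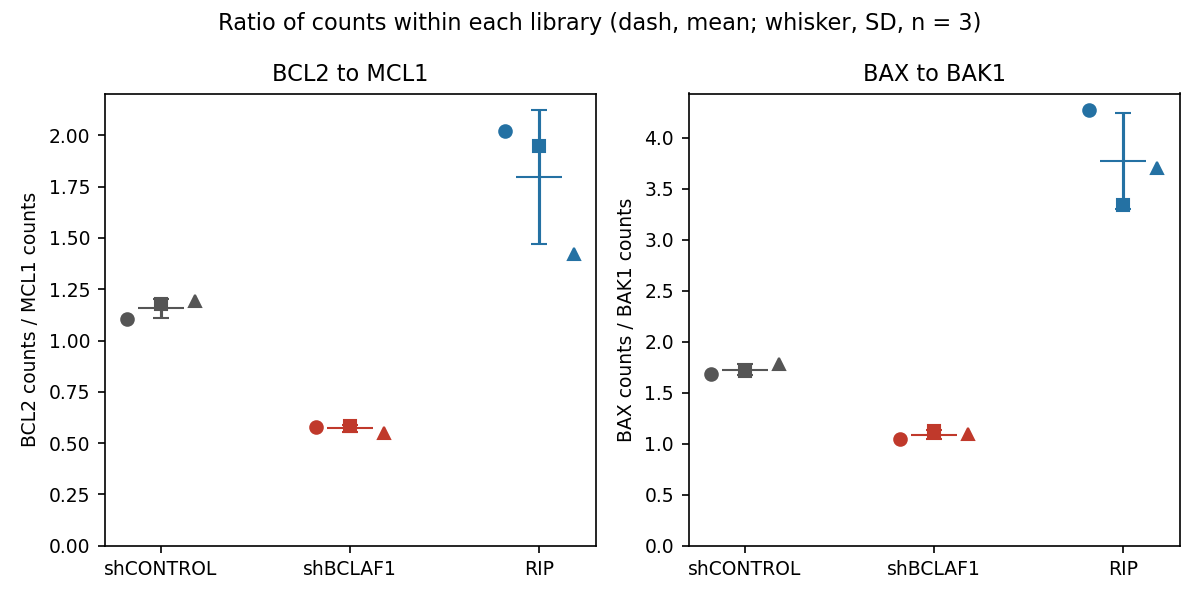
Counts of BCL2 per count of MCL1 (left) and of BAX per count of BAK1 (right) in each library (y axes from 0); dashes are means and whiskers SD over 3 replicates. In both panels shBCLAF1 lies lowest and the RIP highest: mean BCL2 to MCL1 was 1.16 (shCONTROL), 0.572 (shBCLAF1) and 1.80 (RIP), and BAX to BAK1 was 1.73, 1.09 and 3.77.

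The effectors also separated in the RIP. BAX measured 92.7, 68.02 and 88.5 CPM against 51.3 to 59.7 CPM in shCONTROL, higher in every library (log2 fold change 0.56, 0.14 SE, edgeR-adjusted p 0.0155). Its call was lost with library totals (0.0608) and without shCONTROL replicate 1 (0.0542) or 2 (0.0631). BAK1 measured 21.7, 20.4 and 23.9 CPM against 29.98 to 33.6 CPM, lower in every library (log2 fold change -0.56, 0.10 SE, edgeR-adjusted p 0.00570). Counts of BAX per count of BAK1 reached 4.27, 3.34 and 3.70 in the RIP, against 1.68 to 1.78 in shCONTROL.

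Of the BH3-only genes, BCL2L11 and BID were lower in the RIP. BCL2L11 measured 39.4, 42.8 and 30.4 CPM against 70.5 to 78.7 CPM in shCONTROL, a mean of 50.9% of the control. Its log2 fold change of -0.98 (0.15 SE, edgeR-adjusted p 0.00272) fell just short of the minimum size for depletion. It reached that size with library totals (-1.10), among genes above 0 in all 9 libraries (-1.0016), with both RNA-seq groups as the reference (-1.0039), and without shCONTROL replicate 2 (-1.02) or RIP replicate 1 (-1.01) or 2 (-1.09). BID measured 62.8, 51.8 and 58.5 CPM against 80.7 to 89.3 CPM, with a log2 fold change of -0.58 (0.10 SE, edgeR-adjusted p 0.00387).

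The other BH3-only pair, which fell after knock-down, did not pass in the RIP. BBC3 measured 20.3, 22.5 and 21.3 CPM against 22.9 to 26.5 CPM in shCONTROL, with groups that did not overlap (log2 fold change -0.23, 0.10 SE, edgeR-adjusted p 0.105). It passed with library totals (-0.36, adjusted p 0.0302). PMAIP1 measured 41.6, 38.2 and 43.6 CPM against 35.1 to 47.0 CPM, which overlapped (log2 fold change -0.0081, 0.12 SE, edgeR-adjusted p 0.961), and its sign changed in 6 of its 14 alternatives. Groups did not overlap for 8 of the 10 genes in the RIP and 6 of 10 after knock-down, against 67.0% and 49.3% of all genes tested.

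The knock-down and RIP comparisons share the shCONTROL libraries, so their values are set side by side without a joint test. The 3 genes that fell after knock-down had RIP log2 fold changes of -0.07 (BCL2), -0.23 (BBC3) and -0.0081 (PMAIP1), none of which passed. The 2 genes that rose after knock-down had RIP values of -0.56 (BAK1) and -0.72 (MCL1), both of which passed. BCL2A1 had 1.23 in the RIP, which passed, and -0.56 after knock-down, which did not (edgeR-adjusted p 0.0566). The other genes that passed in the RIP did not pass after knock-down either. BAX had 0.56 in the RIP and 0.01 after knock-down, and BCL2L11 had -0.98 and 0.06. BID had -0.58 and 0.06 in that order, and BCL2L1 had -0.79 and -0.39, the same sign in both.

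The rest of the pathway was read through 74 further genes in 6 lists, of which 66 were tested. After knock-down 13 of the 66 were higher and 18 lower, beside 15.5% and 16.9% of all genes tested, with a median log2 fold change of 0.05 against 0.02 over all genes. The number higher was 8 without shCONTROL replicate 3, 7 without shBCLAF1 replicate 1 and 8 without shBCLAF1 replicate 2. In the RIP 17 passed as higher and 28 as lower, beside 24.6% and 24.7% of all genes tested, with a median of -0.31 against -0.05 over all genes. These shares and medians over all genes are the background for each list below. Genes named below beyond the 3 with the smallest adjusted p in a list and a comparison were chosen after their values were seen.

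Of 8 other BCL2 family genes tested, 0 rose and 3 fell after knock-down by edgeR (15.5% and 16.9% of all genes), and the same counts came with DESeq2 and at an unadjusted p under 0.05. BNIP3, a mitochondrial BH3-like protein of mitophagy, fell by 0.69 on the log2 scale (SE 0.11, adjusted p 0.00451 by edgeR). BCL2L13, a mitophagy receptor, fell by 0.34. The BH3-only gene BMF fell by 0.30 (adjusted p 0.0246), but not in the fit of all 9 libraries or without any 1 shBCLAF1 replicate (0.0509 to 0.374). In the RIP BNIP3 (log2 fold change 0.87) and BCL2L13 (0.54) were higher, while BNIP3L (-0.96), BAD and BIK were lower (24.6% and 24.7% of all genes).

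Downstream of the mitochondrion, 13 apoptosome and caspase genes were tested, and 6 rose and 2 fell after knock-down, where 15.5% of all genes rose and 16.9% fell. APAF1, the scaffold of the apoptosome, rose from 110 ± 1.38 to 154 ± 3.17 CPM (SD, n = 3 each; log2 fold change 0.49, 0.03 SE, edgeR-adjusted p 3.16e-04). CASP9, the initiator caspase it activates, rose by 0.52 on the log2 scale, and CASP6, an executioner, by 0.59, though CASP6 missed the threshold when all 9 libraries were fitted together (0.141). DFFA and CASP2 fell. In the RIP 8 of the 13 were lower (24.7% of all genes), with log2 fold changes of -2.29 for ENDOG and -1.42 for DFFA, the inhibitor of the apoptotic nuclease, and 2 were higher (24.6% of all genes), CASP8 among them.

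No gene of the 7 inhibitor of apoptosis genes and antagonists tested passed after knock-down with edgeR (15.5% of all genes were higher and 16.9% lower). The count was 1 at an unadjusted p under 0.05 and 0 with DESeq2. In the RIP 4 were higher and 1 lower (24.6% and 24.7% of all genes). BIRC6 (log2 fold change 0.65), BIRC2 (0.51) and BIRC5, which encodes survivin (0.73), were higher, as was XAF1 (1.57), an antagonist of XIAP. XAF1 missed the threshold when shCONTROL replicate 1 was left out (adjusted p 0.05003). XIAP, the direct caspase inhibitor, was lower (-1.07, adjusted p 0.0157), and it missed the threshold without shCONTROL replicate 2 (0.0505).

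Among 10 death receptor genes tested, 4 rose and 2 fell after knock-down, against 15.5% and 16.9% of all genes. TNFSF10, the ligand TRAIL, rose from 5.35 ± 0.973 to 14.6 ± 0.975 CPM (SD, n = 3 each; log2 fold change 1.44, 0.15 SE, edgeR-adjusted p 0.00116). CFLAR, which blocks caspase-8 at the receptor, rose by 0.49 on the log2 scale. TNFRSF1A (0.12, edgeR-adjusted p 0.0446) and TNFRSF10B (0.17, edgeR-adjusted p 0.0483) also rose, by less and near the threshold. CASP8AP2 (fell by 0.24) and TNFRSF10A were lower. In the RIP TNFRSF1A was lower (-1.29), as were CASP8AP2, FADD and TRADD, and TNFRSF10B (0.72), CFLAR (0.57) and RIPK1 were higher, so that 3 were higher and 4 lower beside 24.6% and 24.7% of all genes.

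**Figure D4:**
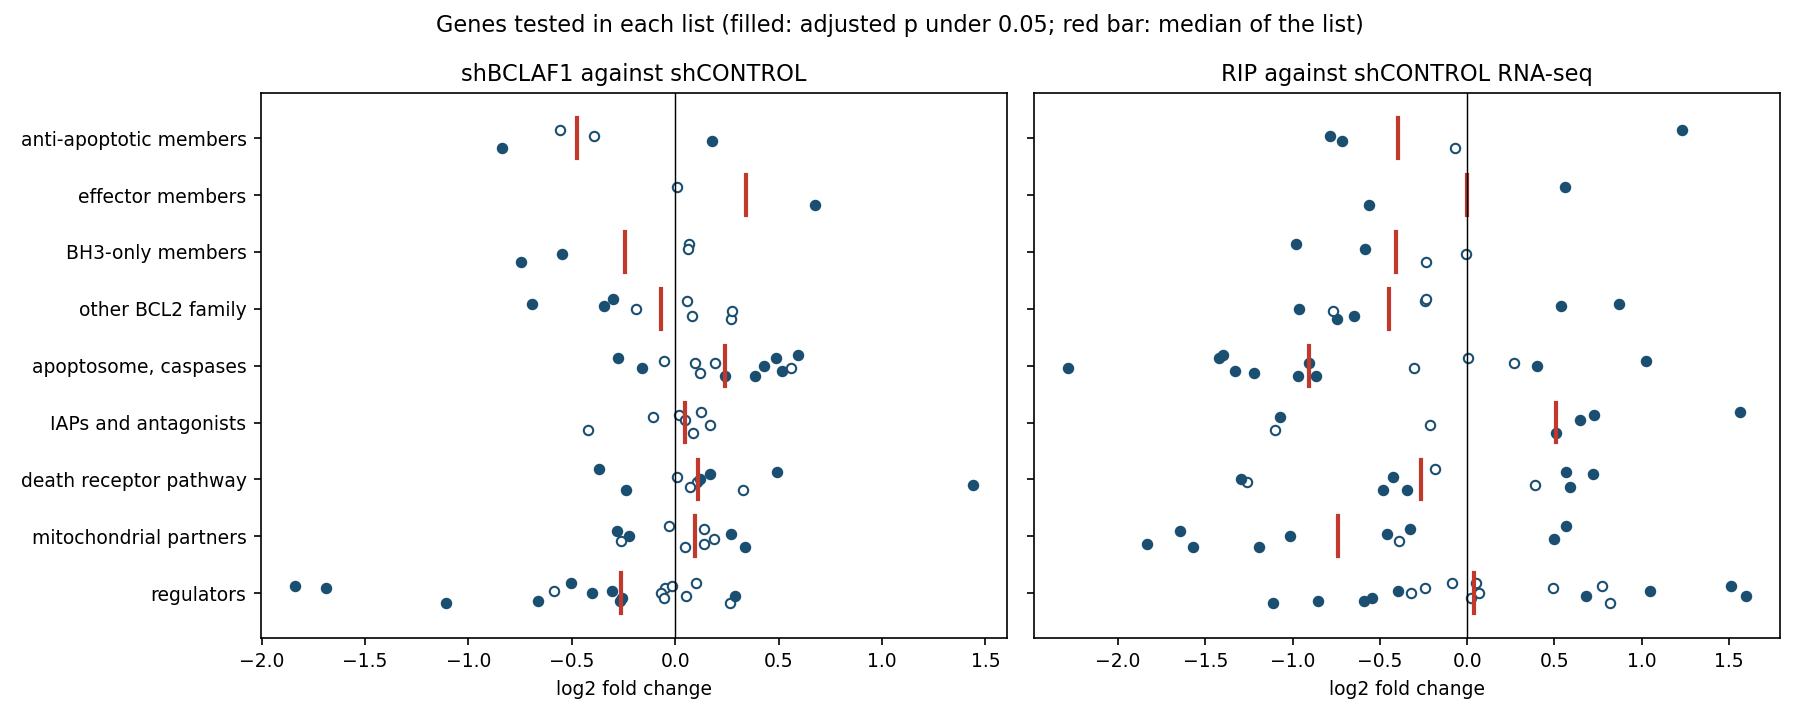
Log2 fold change (x axis) of every tested gene in the 10-gene family, split by role, and in the 6 pathway lists, after knock-down (left) and in the RIP (right); filled points passed at an adjusted p under 0.05 and red bars are list medians. The apoptosome and caspase list has its median at 0.24 after knock-down and -0.91 in the RIP, and the regulator list has its median at -0.26 after knock-down.

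Among 10 mitochondrial partners, 2 rose (VDAC3 and MFN1) and 2 fell (TMBIM6 and VDAC1) after knock-down, none by more than 0.34 in size; over all genes 15.5% rose and 16.9% fell. VDAC3 missed the threshold when all 9 libraries were fitted together (adjusted p 0.284). VDAC1 did not pass there (0.347) or without shCONTROL replicate 1 or 3 or shBCLAF1 replicate 2 or 3 (0.0677 to 0.0941). In the RIP 7 of the 10 were lower (24.7% of all genes), with log2 fold changes of -1.84 for MTCH2, the receptor for truncated BID, -1.65 for TMBIM6 and -1.19 for BCAP31, and OPA1 and MFN2 were higher (24.6% of all genes).

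Of 18 regulators tested, 9 fell and 1 rose (STAT5B) after knock-down, against 16.9% and 15.5% of all genes, with a median log2 fold change of -0.26 against 0.02 over all genes. The kinase PIM2, which phosphorylates BAD, fell by 1.11 on the log2 scale, and the stress pseudokinase TRIB3 fell by 1.69. DDIT3, which encodes CHOP, a stress factor known to lower BCL2, fell from 23.5 ± 7.08 to 6.52 ± 0.969 CPM (SD, n = 3 each; log2 fold change -1.84, 0.24 SE, edgeR-adjusted p 0.00252). In the RIP 4 of the 18 were higher (24.6% of all genes): FBXW7, a ubiquitin ligase adaptor for MCL1 (1.597), DDIT3 (1.51), STAT5A and STAT5B. Another 5 were lower (24.7% of all genes), among them PIM2 (-1.11), FOXO3, E2F1 and PIM1.

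**Figure D5:**
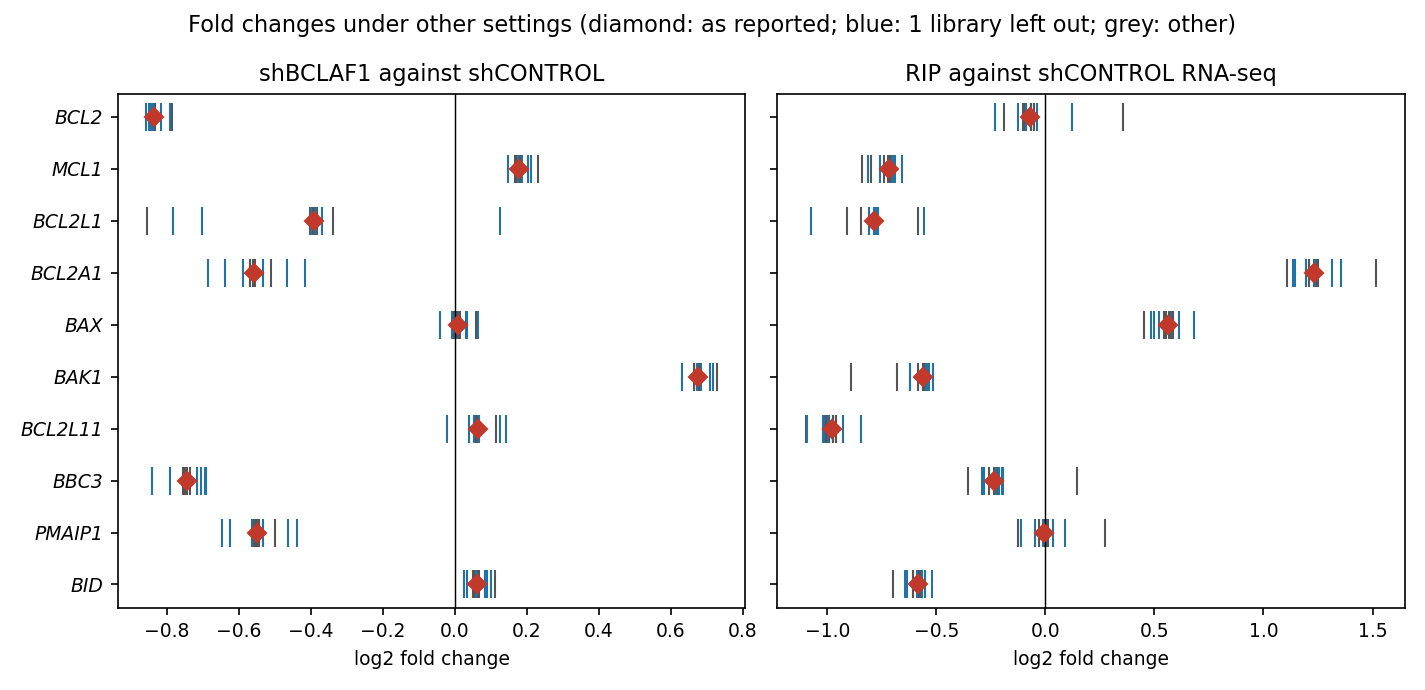
Log2 fold change (x axis) of each of the 10 genes as reported (red diamond) and under the other settings (blue, 1 library left out; grey, other settings), after knock-down (left) and in the RIP (right). BCL2 and BAK1 keep to narrow ranges after knock-down (-0.86 to -0.79 and 0.63 to 0.73), whereas BCL2L1 spans -0.85 to 0.13.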

How the data were processed

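The values are expected counts, that is estimated counts of each gene, which the authors deposited as whole numbers without normalization. The submitters' processing notes name STAR 2.7.11b, StringTie 2.2.3 and the build hg38, with no role or order. The annotation, and whether counting used strand, are not given in the sources used here. An entry that names no gene held 2.18% to 3.75% of the counts in 8 libraries and was left out. Each comparison was fitted on its own 6 libraries with edgeR 4.0.16 in R 4.3.3: default low-count filter, TMM, prior count of 2, quasi-likelihood test, group as the only term and Benjamini-Hochberg adjustment over all genes tested. Enriched and depleted in the RIP also required a log2 fold change of 1 in size. Standard errors came from the coefficient and its F statistic. Alternatives included DESeq2 1.42.0. The fits were also run on simulated data, in which fewer genes changed than were called here, and by more than any family gene. That run therefore does not measure error rates for these data. Floors cover counting error only. Samples were grouped by title, and all carry 1 batch label. The genes and lists were chosen with earlier results of these data known; other pathway genes were named by the 3 smallest adjusted p per list and comparison among those past the threshold without overlap. Some genes of the lists are counted but not reported here by name.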

Additional observations from a re-analysis of the deposited data

How the results depend on the processing

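The knock-down calls of BCL2, BAK1 and BBC3 and the RIP calls of MCL1, BCL2A1, BAK1, BCL2L11 and BID held in their 13 and 14 alternatives, a test for a change beyond 1 on the log2 scale aside. BCLAF1 kept its call in both comparisons. Scaling by library totals, upper-quartile scaling, DESeq2 and the filters changed no direction of a called family gene. The number of family genes higher after knock-down was 1 in the fit of all 9 libraries and 1 to 2 with 1 library left out. Where a size of 1 on the log2 scale was required, 0 were higher and 0 lower, and all genes gave 301 higher and 380 lower. Library totals turned the balance of all genes after knock-down from 2625 higher and 2859 lower to 3241 and 2487, 47.9% to 56.6% of calls higher, and the enriched share of RIP calls of size 1 from 45.04% to 35.8%. The fit of all 9 libraries gave 1129 genes higher and 1318 lower, and 4 and 11 of the pathway genes; the number of pathway genes higher was 7 to 12 with 1 library left out. In the RIP, edgeR's test for a change beyond 1 on the log2 scale gave 0 family genes enriched. Of all genes it gave 732 enriched and 1142 depleted. The number of family genes depleted was 1 with library totals, among genes above 0 in all 9 libraries and with both RNA-seq groups as the reference, and 0 to 2 with 1 library left out. At an adjusted p alone, 1 family gene was higher with library totals, and 1 to 2 with 1 library left out. The cause of these moves was not tested.

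Reversals touched genes that had not passed. With 1 library left out, BCL2L1 ran from -0.78 to 0.13 after knock-down, BAX from -0.041 to 0.065 and BCL2L11 from -0.021 to 0.14; in the RIP BCL2 ran from -0.23 to 0.12 and PMAIP1 from -0.11 to 0.088. After knock-down BCL2L1 was 0.13 without shBCLAF1 replicate 2, BCL2L11 -0.021 without shBCLAF1 replicate 1, and BAX -0.0021 without a filter, -0.041 without shCONTROL replicate 2, -0.0090 without shBCLAF1 replicate 2 and -2e-04 without replicate 3. In the RIP BCL2 was 0.12 without RIP replicate 3, and with both RNA-seq groups as the reference BCL2 was 0.35, BBC3 0.15 and PMAIP1 0.28. PMAIP1 was also 0.0026 with DESeq2, 0.010 with upper quartiles, 8e-04 and 0.088 without shCONTROL replicates 1 and 2, and 0.036 without RIP replicate 2. The anti- minus pro-apoptotic value of shBCLAF1, -0.12, became 0.028 with a pseudocount of 2; without BCL2L1, an alternative added after the data were seen, it was 0.62, beside 0.93 in shCONTROL and 1.34 in the RIP. Same-numbered samples correlated at 0.0257 to 0.110 after knock-down, where each correlated best with its own number, and at -0.0458 to 0.0339 in the RIP. The minimum for pairing, 0.1, was not reached by every number in either comparison, so the numbers were not taken as pairs. For the knock-down, a structure shared by same-numbered samples was not excluded. With a replicate block, family genes lower in the RIP went from 5 to 4 and all genes enriched from 1846 to 1584; BCL2L1 (adjusted p 0.0696) and XAF1 (0.0521) lost their RIP calls, and no other call of a family gene changed. The lowest family counts in a library were 62 for BCL2L1 and 104 for BCL2A1.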

Other observations

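Correlations of family genes were computed over the 9 libraries. MCL1 and BCL2L11 had a Pearson r of 0.962 on log2 CPM and MCL1 and BID 0.903, whereas MCL1 had -0.940 with BAX and -0.938 with BCL2A1. BCL2 was most like BBC3 (0.846) and PMAIP1 (0.759). These values describe 9 libraries in 3 groups and carry no test.

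Among genes with a mean of at least 500 counts, those most like BCL2 over the 9 libraries were H6PD, SNHG14 and GRB2 (Pearson r 0.990, 0.982 and 0.976). Those most like BCL2A1 were TES, MARF1 and STK24 (0.993, 0.990 and 0.989). The values rank 8618 and 8619 genes and are descriptions of these libraries.

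The mean log2 CPM of the 4 anti-apoptotic genes minus that of the 6 pro-apoptotic genes was 0.24, 0.41 and 0.28 in shCONTROL replicates 1, 2 and 3, 0.14, -0.62 and 0.11 in shBCLAF1, and 0.44, 0.82 and 0.22 in the RIP. The low shBCLAF1 replicate 2 is the library in which BCL2L1 held 62 counts. Without BCL2L1 the shBCLAF1 values were 0.65, 0.64 and 0.57, below the shCONTROL values of 0.85, 1.06 and 0.87, and the RIP lay at 1.15 to 1.60.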
